A study of Sus scrofa with 23 samples.

Results

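This account compares the kidney cortex of newborn pigs that lack CFTR with that of their heterozygous counterparts. The members were chosen by the genotype label alone: 11 libraries labelled CFTR-/- (CF pigs 1 to 11) were set against 6 labelled CFTR+/- (HET pigs 13, 14, 15, 19, 20 and 21), which together make 17 of the 23 libraries in the series. The other 6 libraries, from wild-type (WT) pigs, were left out of the comparison and are given only beside it. Total RNA was depleted of ribosomal RNA, sequenced, and assigned to pig transcripts with kallisto, and the study itself compared CF pigs with WT and HET pigs pooled. CF and HET pigs were all newborn, were bred from CFTR+/- parents, and received no treatment named in the labels. CF pigs carried 2 disrupted alleles in every cell and HET pigs kept an intact allele, so the groups differed in whether any intact copy was left. Each library is that of a separate pig, whose sex and litter are not among the labels.

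CFTR encodes an anion channel of epithelial cells that opens when protein kinase A phosphorylates it in response to cAMP, and it conducts chloride and bicarbonate. In the kidney it is found along the tubule, where the proximal segments reclaim glucose, amino acids, phosphate and filtered protein, the loop of Henle and the distal segments reclaim salt, and the collecting duct adjusts water and acid. People and pigs that carry a single working copy are carriers without the disease, so both groups compared here carried a disrupted allele and only the CF pigs lacked the channel.

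Libraries held 32901281 to 52952273 estimated counts, with a median of 43636298 in CF and 47476461 in HET, so that a count of 3 corresponded to 0.0575 to 0.0875 CPM (estimated counts scaled to library size and its TMM factor). The defining markers of kidney cortex were present in every library. LRP2 (megalin, the proximal tubule's receptor for filtered protein) ranged from 3546 to 7964 CPM in CF and from 3896 to 5926 CPM in HET, and SLC34A1 (the phosphate cotransporter of the same segment) from 635 to 1276 and from 542 to 975 CPM. Both markers overlapped between the genotypes. Several libraries stood apart before any comparison. HET pigs 14 and 15 held 6.41 and 9.15 CPM of the liver transcript ALB (albumin), which reached at most 1.53 CPM in the other 15. FOS, an immediate early gene, stood at 405 CPM in CF pig 1 and 61.5 CPM in HET pig 20. RSAD2, an antiviral interferon-stimulated gene, stood at 30.4 CPM in CF pig 3, and FGB (fibrinogen beta chain) at 321 CPM in CF pig 5. The libraries also differed by pig number: with genotype as a term, 691 genes (3.25%) differed between the earlier-numbered pigs (CF 1 to 6 and HET 13 to 15) and the later-numbered pigs (CF 7 to 11 and HET 19 to 21). This split was taken from earlier results of these data, so the count in part restates how the split was chosen. The Y-linked gene EIF1AY was above 1 CPM in 6 of 11 CF and 5 of 6 HET libraries. It was above 1 CPM in 3 of 6 earlier- and 3 of 5 later-numbered CF pigs, and in 2 of 3 and 3 of 3 HET pigs. Values without these libraries stand beside the results that they moved most.

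Counts assigned to CFTR transcripts were higher in CF than in HET cortex. Its level ranged from 12.4 to 23.5 CPM in CF (median 20.7) and from 9.44 to 17.5 CPM in HET (median 11.9). Every CF library lay above the HET median and 8 of 11 lay above all 6 HET libraries, so the groups overlapped through CF pigs 4, 7 and 8. The difference was 0.66 on the log2 scale (SE 0.133), a 1.58-fold higher level. An exact two-sided permutation test of the difference in mean CPM gave p = 0.00145, where the smallest p the design allows is 1.62e-04. In edgeR's quasi-likelihood test across all genes, with Benjamini-Hochberg adjustment, the adjusted p was 0.236, and the gene did not pass, while DESeq2 gave an adjusted p of 0.00453. CFTR was higher by 0.59 in the earlier-numbered pigs and by 0.74 in the later-numbered pigs (edgeR adjusted p = 0.0230 in the latter alone). In WT cortex the gene stood at 1.26 to 3.62 CPM, below every HET library. The files held 4 CFTR transcripts, of which transcripts 1 and 3 carried most of the signal. Transcript 1 had a median of 452 estimated counts in CF and 222 in HET, and transcript 3 had 375 and 291. The gene's medians over WT, HET and CF therefore followed the number of disrupted alleles upwards, and these counts show neither whether the RNA could encode a channel nor whether they are reads of the disrupted transcript or of the targeting construct.

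**Figure D1:**
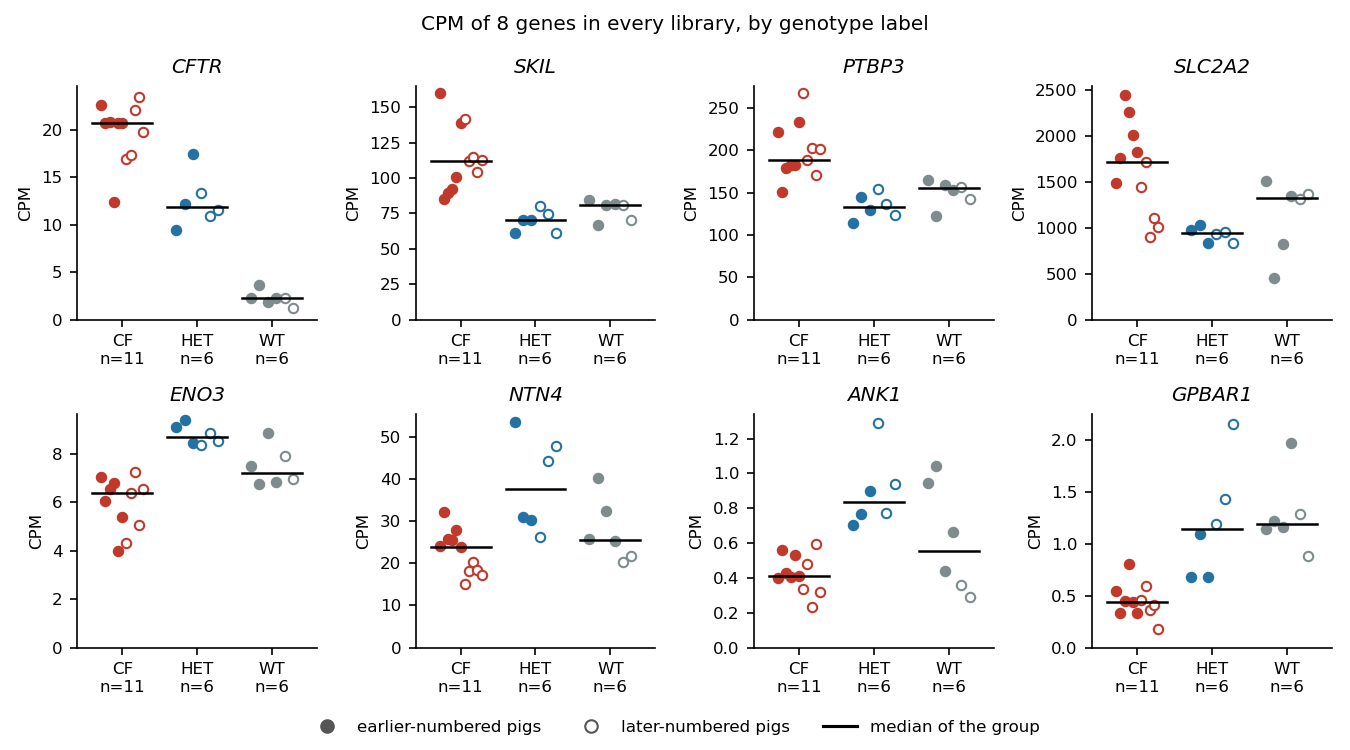
CPM (vertical axes) of CFTR, SKIL, PTBP3, SLC2A2, ENO3, NTN4, ANK1 and GPBAR1 in each library by genotype label (11 CF, 6 HET, 6 WT); filled points are earlier-numbered pigs, open points later-numbered pigs, and bars are medians. SKIL lies between 85.4 and 160 CPM in CF and between 61.0 and 80.5 CPM in HET, and ENO3 at 3.98 to 7.26 against 8.36 to 9.39 CPM, so neither overlaps between CF and HET.

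Across the genome no gene passed the threshold between CF and HET. By edgeR's quasi-likelihood test (Benjamini-Hochberg adjustment), 0 (0%) of the 21261 genes tested had an adjusted p under 0.05, and the smallest adjusted p was 0.150, shared by SKIL, PTBP3, LOC110260367, ANK1 and GPBAR1. At an unadjusted p under 0.05 there were 2025 genes (9.52%), of which 1115 were higher in CF (5.24%) and 910 lower (4.28%). The limma-voom test and an exact Mann-Whitney test on CPM also called 0 genes, the latter with 1711 genes (8.05%) at an unadjusted p under 0.05. DESeq2 called 55 of 23862 genes (0.230%), 40 higher (0.168%) and 15 lower (0.0629%). On simulated counts 14.5% of DESeq2's calls were false, against 6.15% of edgeR's and 5.26% of limma-voom's. Those counts were drawn in a single run from edgeR's own estimates of spread, without pig sets or outlying libraries. They therefore do not give the false share among the calls in these data. Of the 55 genes called by DESeq2, edgeR tested 54 and gave all 54 an unadjusted p under 0.05. LOC110256472, which did not pass edgeR's expression filter, had the smallest DESeq2 p. Its fitted log2 fold change of 22.38 is no measure of size. The groups did not overlap at 15 genes (0.0706%). Every CF library lay above every HET library for 9 of them (0.0423%), namely SKIL, SOX4, PHACTR2, SGMS2, SLC4A7, FAM76B, MEOX2, LOC106507039 and LOC110260367, and below for 6 (0.0282%), namely ENO3, ANK1, DERL3, DNAJC6, GMPR and MRPL14.

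**Figure D2:**
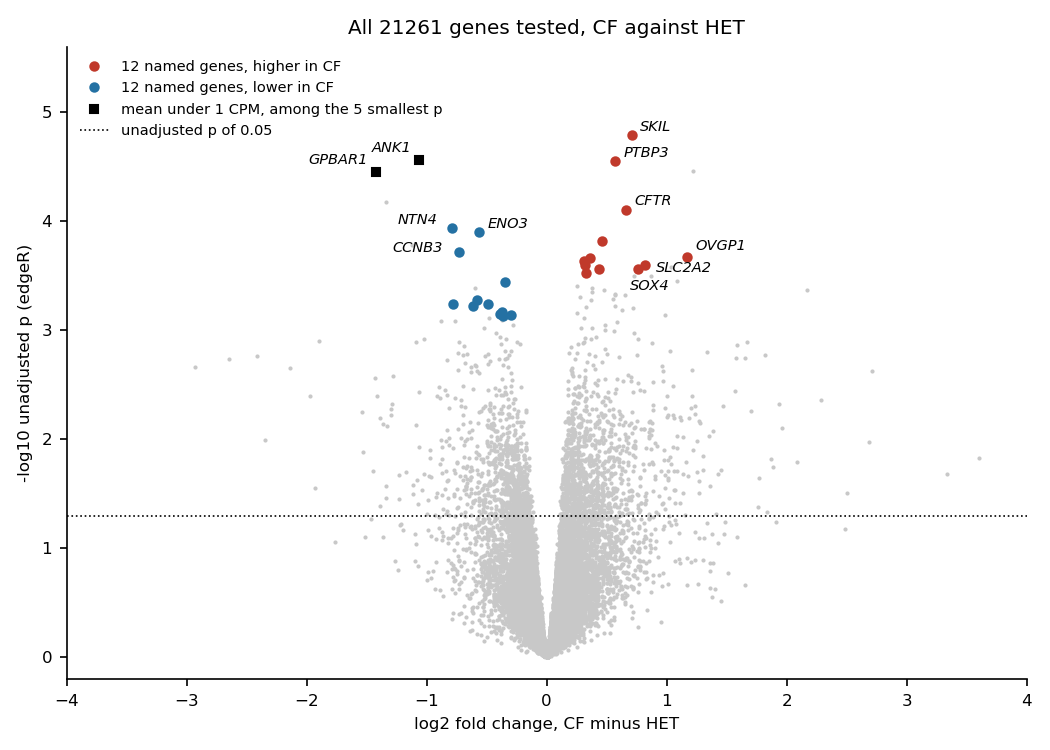
Log2 fold change of CF against HET (horizontal axis) and −log10 of the unadjusted edgeR p (vertical axis) for the 21261 genes tested; coloured points are the 24 named genes with a mean of at least 1 CPM, squares are ANK1 and GPBAR1, and the dotted line is an unadjusted p of 0.05. SKIL lies highest among the genes higher in CF, and no point reaches an adjusted p under 0.05.

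The gene with the smallest p of all, SKIL, encodes SnoN, a nuclear repressor that binds SMAD proteins and whose own transcription is switched on by TGF-beta. Its level ranged from 85.4 to 160 CPM in CF (median 112) and from 61.0 to 80.5 CPM in HET (median 70.5). All 11 CF libraries lay above all 6 HET libraries, with CF pig 1 highest and CF pig 2 lowest of the CF group. The difference was 0.71 on the log2 scale (SE 0.125, unadjusted p = 1.62e-05, edgeR adjusted p = 0.150). Under DESeq2 the adjusted p was 6.87e-04. It was of like size in the earlier-numbered pigs (0.73) and the later-numbered pigs (0.70, edgeR adjusted p = 0.0197 in that set alone). SKIL in WT cortex ranged from 66.9 to 84.3 CPM, and HET against WT differed by -0.15 (unadjusted p = 0.269), with CF against WT at 0.56 (edgeR adjusted p = 0.0373). These contrasts share the CF or HET libraries with the main comparison and are not independent of it.

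PTBP3, an RNA-binding protein that regulates splicing, followed with 151 to 268 CPM in CF (median 188) and 114 to 154 CPM in HET (median 134). Its range touched that of HET through a single CF library, and 10 of 11 lay above all HET libraries. The log2 fold change was 0.57 (SE 0.104, edgeR adjusted p = 0.150), and 0.56 and 0.58 in the earlier- and later-numbered pigs. The sequences upstream of SKIL and PTBP3 are shown here because they had the smallest p among well-expressed genes, and that of SMAD7, another feedback gene of the same pathway, because it was found to hold a SMAD motif; SMAD7 was added after its motif had been seen. Each sequence covers the 250 bases before the annotated start of the gene on the Sscrofa11.1 genome (RefSeq annotation), read along the gene's own strand, with capitals marking the SMAD palindrome GTCTAGAC. SKIL lies upstream at chr13:109029581-109029830 on the plus strand, PTBP3 at chr1:253093060-253093309 and SMAD7 at chr1:98543925-98544174, both on the minus strand.
SKIL: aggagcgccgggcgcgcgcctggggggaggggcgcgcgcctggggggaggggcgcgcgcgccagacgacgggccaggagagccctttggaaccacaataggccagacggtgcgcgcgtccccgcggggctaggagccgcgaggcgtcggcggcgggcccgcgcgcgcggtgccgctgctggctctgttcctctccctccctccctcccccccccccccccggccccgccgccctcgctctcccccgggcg
PTBP3: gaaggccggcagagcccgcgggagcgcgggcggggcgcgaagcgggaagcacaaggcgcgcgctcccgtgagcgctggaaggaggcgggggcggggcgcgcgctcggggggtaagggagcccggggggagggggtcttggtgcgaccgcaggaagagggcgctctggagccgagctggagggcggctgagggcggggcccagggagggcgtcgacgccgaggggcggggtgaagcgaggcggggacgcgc
SMAD7: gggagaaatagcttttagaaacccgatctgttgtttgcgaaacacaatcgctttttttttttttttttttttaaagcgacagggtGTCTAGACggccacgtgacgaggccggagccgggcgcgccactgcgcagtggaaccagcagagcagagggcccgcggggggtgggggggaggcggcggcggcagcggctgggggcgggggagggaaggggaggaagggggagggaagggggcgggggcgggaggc
The SKIL and PTBP3 sequences were rich in G and C (81.6% and 79.2%, against a median of 57.6% over all promoters). Each was searched on both strands for the SMAD palindrome GTCTAGAC, the SMAD-binding CAGA box AGCCAGACA, the cAMP response element TGACGTCA and the ATF4 site TGATGCAA, and neither held any of them. In SMAD7 the palindrome began 165 bases before the start. Among 19531 promoters of this length, 32 (0.164%) held the palindrome, 53 (0.271%) the CAGA box, 332 (1.7%) the cAMP response element and 119 (0.609%) the ATF4 site. Of the 30 promoters of the TGF-beta list described next, SMAD7 alone held the palindrome. The 23 promoters of the top named genes that could be read held none of the 4 motifs. Such a match describes letters in this window only.

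TGF-beta signals through receptor kinases that phosphorylate SMAD proteins, and the pathway switches on its own inhibitors as well as matrix genes. Of 30 listed feedback and response genes, all tested, 26 were higher in CF than in HET, with a median of 0.26 on the log2 scale, where 51.3% of all genes were higher with a median of 0.01. None passed the adjusted threshold. At an unadjusted p under 0.05, 15 of the 30 (50%) were higher and 0 lower, against 5.24% and 4.28% of all genes. The list had been written after genes of these libraries were seen, so its direction is not independent evidence. Among the inhibitors, SMAD7, which blocks the receptor, ranged from 35.1 to 93.1 CPM in CF (median 53.1) and from 29.4 to 37.6 CPM in HET (median 34.7). It was above all HET libraries in 7 of 11 CF libraries and differed by 0.76 on the log2 scale (SE 0.199, edgeR adjusted p = 0.335; DESeq2 adjusted p = 0.0495). SMURF1 and SMURF2, ubiquitin ligases that work with SMAD7, differed by 0.26 and 0.18, PMEPA1 and LDLRAD4, which sequester SMADs, by 1.65 and 0.55, and the corepressor TGIF1 by 0.26, each at an unadjusted p under 0.05.

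Of the ligands and receptors, TGFBR1, the type I receptor, ranged from 65.1 to 89.0 CPM in CF (median 71.6) and from 57.3 to 67.6 CPM in HET (median 60.3). Its log2 fold change was 0.28 (SE 0.0674, edgeR adjusted p = 0.297), and 10 of 11 CF libraries lay above all HET libraries. TGFB3, LTBP2 (a latent TGF-beta binding protein) and SMAD3 differed by 0.48, 0.56 and 0.35 at an unadjusted p under 0.05. The type II receptor TGFBR2 differed by -0.19. Of the response genes, KLF10, a zinc finger repressor induced early by TGF-beta, stood at 50.5 to 92.9 CPM in CF and 39.7 to 65.5 CPM in HET and differed by 0.49 (SE 0.125, edgeR adjusted p = 0.319). Members at the other end were ID3 at -0.30, KLF11 at -0.22 and ID1 at -0.09.

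The pattern of the list was examined in subsets. In the earlier-numbered pigs 27 of 30 were higher, with a median of 0.20 and 4 (13.3%) at an unadjusted p under 0.05, against 2.94% of all genes. In the later-numbered pigs 25 were higher, with a median of 0.29, and 5 passed edgeR's adjusted threshold in that set alone, 4 higher and 1 lower, where 428 of 21241 genes (2.01%) passed. Without CF pigs 1, 3 and 5, 14 members (46.7%) were higher at an unadjusted p under 0.05 and 2 (6.67%) were lower, against 5.32% and 4.65% of all genes, with a median of 0.19. Without HET pigs 14 and 15 these were 13 (43.3%) and 0, against 4.83% and 5.93%, with a median of 0.29.

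Beyond this pathway, the genes higher in CF with the smallest p and a mean of at least 1 CPM included regulators of transcription and signalling. SOX4, a transcription factor of developing tissues, stood at 80.7 to 200 CPM in CF (median 116) and 64.2 to 76.5 CPM in HET (median 71.7), with no overlap. Its log2 fold change was 0.76 (SE 0.171, edgeR adjusted p = 0.293), at 0.52 in the earlier- and 1.0 in the later-numbered pigs. CREB1, the transcription factor that protein kinase A activates, ranged from 77.0 to 111 CPM in CF (median 85.8) and from 63.2 to 79.6 CPM in HET (median 70.2), and 9 of 11 CF libraries lay above all HET libraries. It differed by 0.33 (SE 0.0761, edgeR adjusted p = 0.293). PHACTR2, which binds actin and protein phosphatase 1, stood at 212 to 293 against 174 to 206 CPM without overlap and differed by 0.36.

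Among genes of metabolism and secretion, SLC2A2 stood out by its level. It encodes GLUT2, the basolateral carrier by which glucose leaves the proximal tubule cell. SLC2A2 ranged from 903 to 2441 CPM in CF (median 1711) and from 832 to 1031 CPM in HET (median 940). CF pigs 9 and 11 fell within the HET range and the other 9 lay above it. The log2 fold change was 0.82 (SE 0.183, edgeR adjusted p = 0.293; DESeq2 adjusted p = 0.00858), a 1.76-fold higher level. In the earlier-numbered pigs it was 1.05 and in the later-numbered pigs 0.45 (edgeR adjusted p = 0.266). WT libraries spanned 451 to 1512 CPM, overlapping both groups. OVGP1, a secreted mucin-like glycoprotein best known from the oviduct, was at 2.68 to 13.3 CPM in CF and 2.38 to 5.04 CPM in HET. Its log2 fold change was 1.17 (SE 0.259, edgeR adjusted p = 0.293), at 0.70 in the earlier-numbered pigs (edgeR adjusted p = 0.999) and 1.70 in the later-numbered pigs (edgeR adjusted p = 0.00736). HET also lay below WT for OVGP1 by -0.78 (unadjusted p = 0.00679), while CF against WT was 0.40 (edgeR adjusted p = 0.458). CASD1, which acetylates sialic acids, LRRC58 and the Kelch-family adaptor KLHL24 completed the group with log2 fold changes of 0.32, 0.31 and 0.44. For LRRC58 and KLHL24, CF also passed against WT (edgeR adjusted p = 0.0303 and 0.0109).

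Of the 12 genes lower in CF with the smallest p and a mean of at least 1 CPM, the first by p were NTN4, ENO3 and CCNB3, and none passed the adjusted threshold. ENO3, the muscle-type enolase of glycolysis, stood at 3.98 to 7.26 CPM in CF (median 6.40) and 8.36 to 9.39 CPM in HET (median 8.69), with no overlap. The log2 fold change was -0.56 (SE 0.118, edgeR adjusted p = 0.293), at -0.59 and -0.54 in the earlier- and later-numbered pigs. NTN4, a netrin of basement membranes, was at 15.1 to 32.3 CPM in CF (median 23.8) and 26.3 to 53.6 CPM in HET (median 37.7), a log2 fold change of -0.79 (SE 0.164, edgeR adjusted p = 0.293). It fell by 1.15 in the later-numbered pigs (edgeR adjusted p = 0.00793) and was -0.53 in the earlier-numbered pigs. WT libraries spanned 20.2 to 40.3 CPM for NTN4, and HET lay above WT by 0.50 (unadjusted p = 0.0180). CCNB3, a B-type cyclin, stood at 8.60 to 17.2 CPM in CF and 13.2 to 24.9 CPM in HET, with WT at 15 to 22.4 CPM. It differed by -0.73 (SE 0.160, edgeR adjusted p = 0.293), fell by 1.19 in the later-numbered pigs (edgeR adjusted p = 9.75e-04), and was -0.26 in the earlier-numbered pigs.

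The other 9 lower genes had log2 fold changes from -0.78 to -0.30. CPT1B, the muscle-type carnitine palmitoyltransferase that admits fatty acids to mitochondria, ranged from 5.63 to 10 CPM in CF and from 9.81 to 12.7 CPM in HET, with 10 of 11 CF libraries below all HET libraries and a difference of -0.49 (SE 0.118, edgeR adjusted p = 0.303). ACSL4, an acyl-CoA synthetase with a preference for arachidonic acid, was at 56.8 to 74.7 and 63.4 to 92.4 CPM (log2 fold change -0.35). GK, glycerol kinase, was at 115 to 156 and 130 to 201 CPM (log2 fold change -0.36). LY96, the partner of Toll-like receptor 4 in sensing lipopolysaccharide, stood at 3.04 to 7.03 CPM in CF and 4.38 to 11.6 CPM in HET. It differed by -0.78 (SE 0.191, edgeR adjusted p = 0.303), and HET lay above WT by 1.09 (unadjusted p = 3.47e-05), where WT held 2.66 to 4.67 CPM. METRNL (a secreted factor), MIR9810 (a microRNA precursor), BAK1 (a pro-apoptotic BCL2 relative), SLX1A (a nuclease subunit) and TTF2 (a transcription termination factor) differed by -0.61, -0.58, -0.39, -0.37 and -0.30. Counting CFTR among the 12 higher genes, all 24 genes of these groups kept their direction in both pig sets and had edgeR adjusted p between 0.150 and 0.304. In the fit of all 23 libraries, 6 of the 24 differed between HET and WT at an unadjusted p under 0.05, where 1715 of 21434 genes did. Between CF and WT, 19 of the 24 differed at that p. Of these groups 5 passed the adjusted threshold for CF against WT, where 0.336% of all genes did. The 24 were picked by their CF against HET values in shared libraries, so these counts are not independent of that choice.

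**Figure D3:**
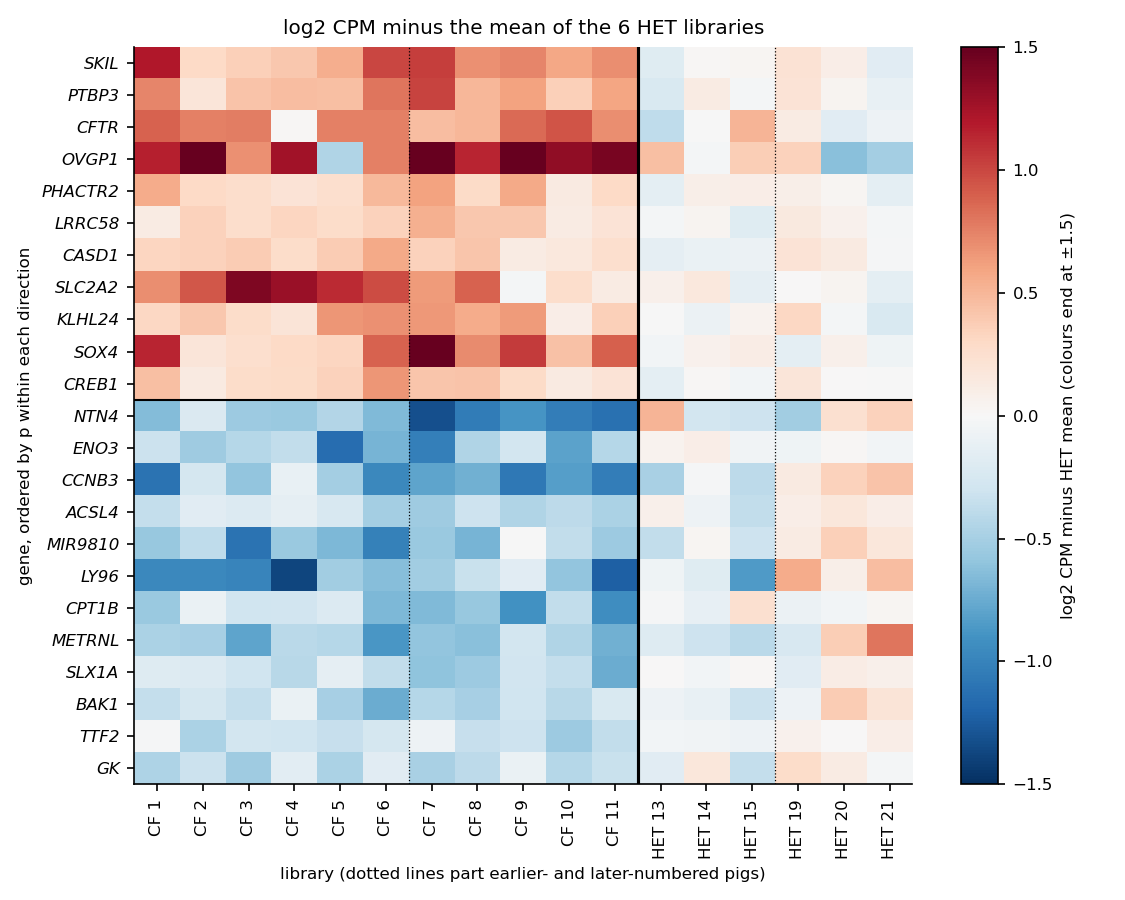
Log2 CPM minus the mean of the 6 HET libraries (colour, ending at ±1.5) for 11 higher and 12 lower named genes (rows) in the 11 CF and 6 HET libraries (columns; dotted lines part earlier- and later-numbered pigs). The upper 11 genes are mostly red and the lower 12 mostly blue across CF libraries of both pig sets.

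At low abundance, GPBAR1 and ANK1 shared the smallest adjusted p with SKIL, PTBP3 and LOC110260367. GPBAR1, the membrane receptor for bile acids that raises cAMP, ranged from 0.175 to 0.806 CPM in CF (median 0.440) and from 0.675 to 2.15 CPM in HET (median 1.14). Only CF pig 4 reached the HET range. The log2 fold change was -1.42 (SE 0.267, edgeR adjusted p = 0.150; DESeq2 adjusted p = 0.00429), and GPBAR1 fell by 1.97 in the later-numbered pigs (edgeR adjusted p = 0.0148). WT libraries spanned 0.879 to 1.97 CPM, HET against WT was -0.07 and CF against WT was -1.49 (edgeR adjusted p = 0.0109). SCT, the hormone secretin that also raises cAMP, stood at 0.255 to 0.781 CPM in CF and 0.566 to 1.18 CPM in HET, a log2 fold change of -1.12 (SE 0.241, edgeR adjusted p = 0.293).

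ANK1, the ankyrin of the red cell membrane, ranged from 0.234 to 0.596 CPM in CF (median 0.409) and from 0.704 to 1.29 CPM in HET (median 0.837), without overlap, a log2 fold change of -1.06 (SE 0.195, edgeR adjusted p = 0.150). Of 16 erythroid genes tested, 1 was higher in CF and 15 lower, with a median of -0.28 (in the fit with WT libraries, 0.44 for HET against WT and 0.08 for CF against WT), and 4 (25%) were lower at an unadjusted p under 0.05, against 4.28% of all genes. HBB, the adult beta globin and the list's most abundant member, was at 63.1 to 399 CPM in CF and 101 to 173 CPM in HET and differed by -0.07. That value rested on CF pig 1, which held the 399 CPM, and without it HBB reached at most 180 CPM in CF and differed by -0.41 (edgeR adjusted p = 0.427). Without CF pig 1 the list's median was -0.38 with 8 (50%) lower at an unadjusted p under 0.05, against 5.24% of all genes in that fit. In whole cortex, fewer cells of a type and less RNA per cell cannot be told apart.

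The solute carriers that the study's question turns on had a median near that of all genes. Of 52 amino acid transporters tested, 34 were higher and 18 lower, with a median of 0.06, and at an unadjusted p under 0.05 there were 3 higher (5.77%) and 5 lower (9.62%), against 5.24% and 4.28% of all genes. Without CF pig 1 and HET pig 20 these were 4 (7.69%) and 2 (3.85%), against 4.72% and 3.43% of all genes. Leaving out HET pig 21 alone also gave 2 lower (3.85%). In that fit 1222 of all genes were at that p in either direction, against 2025 in the full fit. Without CF pig 3 there were 6 higher (11.5%, against 5.08% of all genes), and without CF pigs 1, 3 and 5 there were 7 of 52, against 5.32% of all genes. The later-numbered pigs alone gave 11 higher (21.2%) and 4 lower (7.69%), against 7.73% and 8.83% of all genes. SLC1A1, the glutamate and aspartate carrier of the proximal tubule, stood at 47.4 to 120 CPM in CF and 50.6 to 101 CPM in HET, a log2 fold change of -0.02 (SE 0.178, edgeR adjusted p = 0.983). SLC38A4, a carrier of neutral and cationic amino acids, was at 1.37 to 4.28 and 2.18 to 3.60 CPM, a log2 fold change of -0.08 (SE 0.185, edgeR adjusted p = 0.920). The groups overlapped throughout for both. SLC3A1, the rBAT subunit of the cystine carrier, was lower in 10 of 11 CF libraries than in all HET libraries, at 84.2 to 172 against 133 to 186 CPM, and differed by -0.49 (SE 0.135, edgeR adjusted p = 0.340). Its partner SLC7A9 differed by -0.25. SLC6A19, the main apical carrier of neutral amino acids, differed by -0.53 and the glutamine carrier SLC1A5 by -0.47. SLC6A15, a carrier of branched-chain amino acids and proline, differed by 0.55. SLC7A5, the exchanger of large neutral amino acids, spread from 31.9 to 139 CPM in CF and from 33.6 to 57.4 CPM in HET. In the earlier-numbered pigs it differed by 0.15, and in the later-numbered pigs, where the CF libraries held 139, 96.3, 125, 80.3 and 123 CPM and the HET libraries 33.6, 43.3 and 47.3 CPM, it rose by 1.44 (edgeR adjusted p = 0.00493). The difference between the sets was 1.30 (edgeR adjusted p = 0.278) and did not pass.

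Of 32 genes of glucose and lactate handling, 11 were higher and 21 lower, with a median of -0.08, and 3 (9.38%) were higher and 4 (12.5%) lower at an unadjusted p under 0.05, against 5.24% and 4.28% of all genes. Beside SLC2A2, the first enzyme of gluconeogenesis from pyruvate, PC, stood at 218 to 599 CPM in CF and 153 to 317 CPM in HET, a log2 fold change of 0.68 (SE 0.196, edgeR adjusted p = 0.376). The lactate dehydrogenase subunits lay the other way. LDHA was at 34.8 to 106 CPM in CF (median 44.9) and 68.6 to 127 CPM in HET (median 78.9), with 8 of 11 CF libraries below all HET libraries. It differed by -0.65 (SE 0.243, edgeR adjusted p = 0.443) and fell by 0.89 in the later-numbered pigs (edgeR adjusted p = 0.00268). LDHB was at 0.381 to 1.37 and 1.0 to 2.59 CPM and differed by -0.83. SLC5A1, the apical sodium and glucose cotransporter SGLT1, and MDH1, cytosolic malate dehydrogenase, differed by -0.44 and -0.38.

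Of 39 genes of chloride, bicarbonate and proton transport, the functions closest to CFTR, 13 were higher and 26 lower, with a median of -0.07. SLC4A7, the electroneutral sodium bicarbonate cotransporter, lay above every HET library in every CF library, at 50.4 to 68.8 against 43.0 to 50.1 CPM. Its log2 fold change was 0.29 (SE 0.0739, edgeR adjusted p = 0.324), at 0.29 and 0.27 in the earlier- and later-numbered pigs. ANO1, a chloride channel opened by calcium, was at 15 to 23.3 CPM in CF and 10.5 to 20 CPM in HET and differed by 0.41 (SE 0.131, edgeR adjusted p = 0.416). SLC12A2, the cotransporter NKCC1 that loads chloride from the basolateral side, was at 32.8 to 55.6 and 29.4 to 40.6 CPM and differed by 0.33. For ANO1 and SLC12A2, HET lay below WT by -0.42 and -0.32 (unadjusted p = 0.0236 and 0.0139), while CF against WT was -0.01 and 0.01. The anion exchanger SLC4A2 differed by -0.20.

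CFTR is gated by cAMP, and 39 genes of the cAMP, CREB and protein kinase A pathway had a median of 0.02, with 22 higher and 17 lower. At an unadjusted p under 0.05, 4 (10.3%) were higher and 0 lower, against 5.24% and 4.28% of all genes. Only 2 (5.13%) were higher without CF pig 1, CF pig 7, CF pig 9 or HET pig 21. In those fits 2444, 1867, 2273 and 1222 of all genes were at that p in either direction, against 2025 in the full fit. Beside CREB1 the 4 were PRKACB, a catalytic subunit of protein kinase A, at 39.4 to 46.0 CPM in CF and 34.9 to 39.4 CPM in HET (log2 fold change 0.18, edgeR adjusted p = 0.397), and the cAMP phosphodiesterases PDE3B and PDE4B, at 0.23 and 0.46. Of 24 gut and kidney peptide hormones and their receptors, 14 were higher, with a median of 0.04. GPR37 was at 5.81 to 12.6 CPM in CF, 8.35 to 16.1 CPM in HET and 14.2 to 21 CPM in WT, and differed by -0.60 from HET and by -1.06 from WT (edgeR adjusted p = 0.360 and 0.00583). Among 19 bile acid genes, 7 were higher, with a median of -0.10. NR1I2, the nuclear receptor PXR that bile acids and drugs bind, was at 9.88 to 34.3 CPM in CF and 6.60 to 15.9 CPM in HET, a log2 fold change of 0.96 (SE 0.271, edgeR adjusted p = 0.361).

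Cell-type markers varied by segment. The 22 proximal tubule markers had a median of -0.01, with 10 higher, and their summed level ranged from 10631 to 18283 CPM in CF and from 11194 to 15728 CPM in HET. AQP1, the water channel of this segment, was at 162 to 396 CPM in CF and 138 to 251 CPM in HET and differed by 0.46, at 0.08 in the earlier-numbered pigs and 0.87 in the later-numbered pigs (edgeR adjusted p = 0.0213). Of 21 markers that belong to Henle's loop or the distal tubule, 16 were lower, with a median of -0.18 and a summed level of 2882 to 4016 CPM in CF and 2901 to 4254 CPM in HET. SLC12A1, the salt cotransporter of the thick ascending limb, was at 498 to 654 and 503 to 837 CPM and differed by -0.24. SLC12A3, that of the distal convoluted tubule, was at 130 to 334 and 147 to 554 CPM and differed by -0.49. CALB1, the calcium-binding calbindin of the distal tubule, was at 16.2 to 126 CPM in CF and 63.2 to 401 CPM in HET and differed by -1.41 (SE 0.433, edgeR adjusted p = 0.397). In the later-numbered pigs CALB1 fell by 2.38 and SLC12A3 by 0.86 (edgeR adjusted p = 0.0122 and 0.0140). Without CF pig 1 and HET pig 20 they differed by -0.89 and -0.32. The list median was -0.33 in the later-numbered pigs and -0.01 in the earlier-numbered pigs, where CALB1 differed by 0.11, but the difference between the sets did not pass for CALB1 (-2.48, edgeR adjusted p = 0.253).

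Markers of the collecting duct (19 tested, 10 higher, median 0.05), podocyte (13, 10 higher, 0.06) and endothelium (15, 9 higher, 0.03) lay near the median of all genes. AQP2, the vasopressin-regulated water channel, was at 20.5 to 96.2 CPM in CF and 38.4 to 61.0 CPM in HET and differed by 0.05. The 15 stromal and mural genes had a median of 0.13, with 12 higher, but 0.05 without CF pig 1, 0.07 without HET pig 19, and 0.00 with 8 higher without CF pigs 1, 3 and 5. POSTN, the matrix protein periostin, was at 18.2 to 66.2 CPM in CF and 8.62 to 36.2 CPM in HET and differed by 0.85 (edgeR adjusted p = 0.447), and by 0.47 without HET pigs 14 and 15, where WT libraries held 45.6 to 68.5 CPM. The 16 immune genes tested, of 20 listed, had a median of -0.14 (0.01 without HET pig 21), at 0.14 in the earlier- and -0.31 in the later-numbered pigs, and a summed level of 151 to 258 CPM in CF and 150 to 195 CPM in HET. Of these 16 immune genes 6 were higher and 10 lower. C1QB, a complement component of macrophages, was at 17.5 to 34.3 and 16.2 to 21.7 CPM and differed by 0.36. PTPRC, the common leukocyte antigen, went the other way and differed by -0.32. The newborn pig kidney still forms nephrons, and of 19 genes of nephron progenitors and the ureteric bud 17 were higher in CF, with a median of 0.14 and 4 (21.1%) at an unadjusted p under 0.05, against 5.24% of all genes. The median was 0.09 without CF pig 1 and 0.06 without HET pig 19. In the fit with WT libraries it was -0.23 for HET against WT and -0.05 for CF against WT. The earlier-numbered pigs alone had 1 member (5.26%) higher at an unadjusted p under 0.05, against 2.94% of all genes. MEOX2, a homeobox factor, stood at 0.334 to 0.871 CPM in CF and 0.149 to 0.320 CPM in HET without overlap, a log2 fold change of 1.04 (SE 0.235, edgeR adjusted p = 0.293), but WT libraries held 0.419 to 1.45 CPM and HET lay below WT by -1.48 (unadjusted p = 4.41e-05). WNT9B, the ureteric bud's signal to progenitors, differed by 0.60, at 0.09 in the earlier-numbered pigs and 1.09 in the later-numbered pigs (edgeR adjusted p = 0.0138).

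Lists of cell state gave mixed pictures. Of 27 cell cycle genes 24 were lower in CF, with a median of -0.22 and 5 (18.5%) lower at an unadjusted p under 0.05, against 4.28% of all genes, among them CDC20 at -0.34, CDK1 at -0.29 and CDK2 at -0.25. Leaving out single libraries moved the median between -0.29 (without HET pig 15) and -0.09 (without HET pig 21). The members lower at that p went from 11 (40.7%) to 1 (3.70%) between these fits. Over all genes, those at that p in either direction went from 2519 to 1222. Without CF pig 1 and HET pig 20 there were 2 members (7.41%) lower, against 3.43% of all genes. In the earlier-numbered pigs the median was -0.02 and 0 were lower at an unadjusted p under 0.05, where 1.60% of all genes were. The later-numbered pigs gave a median of -0.27 with 12 (44.4%) lower, where 8.83% of all genes were. Of 23 FoxO and fasting-response genes 18 were higher, with a median of 0.13, and KLHL24, SESN1, FOXO1 and INSR (17.4%) were higher at an unadjusted p under 0.05, against 5.24% of all genes. SESN1, a stress-induced inhibitor of mTORC1, was at 52.0 to 69.8 CPM in CF and 40.0 to 54.5 CPM in HET and differed by 0.31 (SE 0.0826, edgeR adjusted p = 0.335). Without CF pigs 1, 3 and 5 the list's median was 0.00 with 12 higher. The 34 genes of the ATF4 response and the tRNA synthetases had a median of -0.02, with 16 higher. The later-numbered pigs had 21 of them higher, with 1 called higher and 1 lower, where 0.852% and 1.16% of all genes were. SESN2, related to SESN1, was the one called higher and rose by 1.49 (edgeR adjusted p = 0.0143) with CF libraries at 130.0, 58.9, 107, 61.4 and 73.9 CPM and HET libraries at 29.4, 30.6 and 31.8 CPM. The 20 hypoxia genes had a median of -0.07, with 8 higher. PFKFB3, which drives glycolysis, was at 33.4 to 136 CPM in CF and 34.5 to 44.4 CPM in HET and differed by 0.87, and P4HA1, a collagen prolyl hydroxylase, by -0.34. The 16 genes of hexosamine and glycan supply had a median of -0.06, with 7 higher. PGM3, of the hexosamine pathway, was at 14.3 to 22.6 CPM in CF and 19.2 to 26.7 CPM in HET and differed by -0.37 (SE 0.0936, edgeR adjusted p = 0.305), and from WT by -0.48 (edgeR adjusted p = 0.0226).

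**Figure D4:**
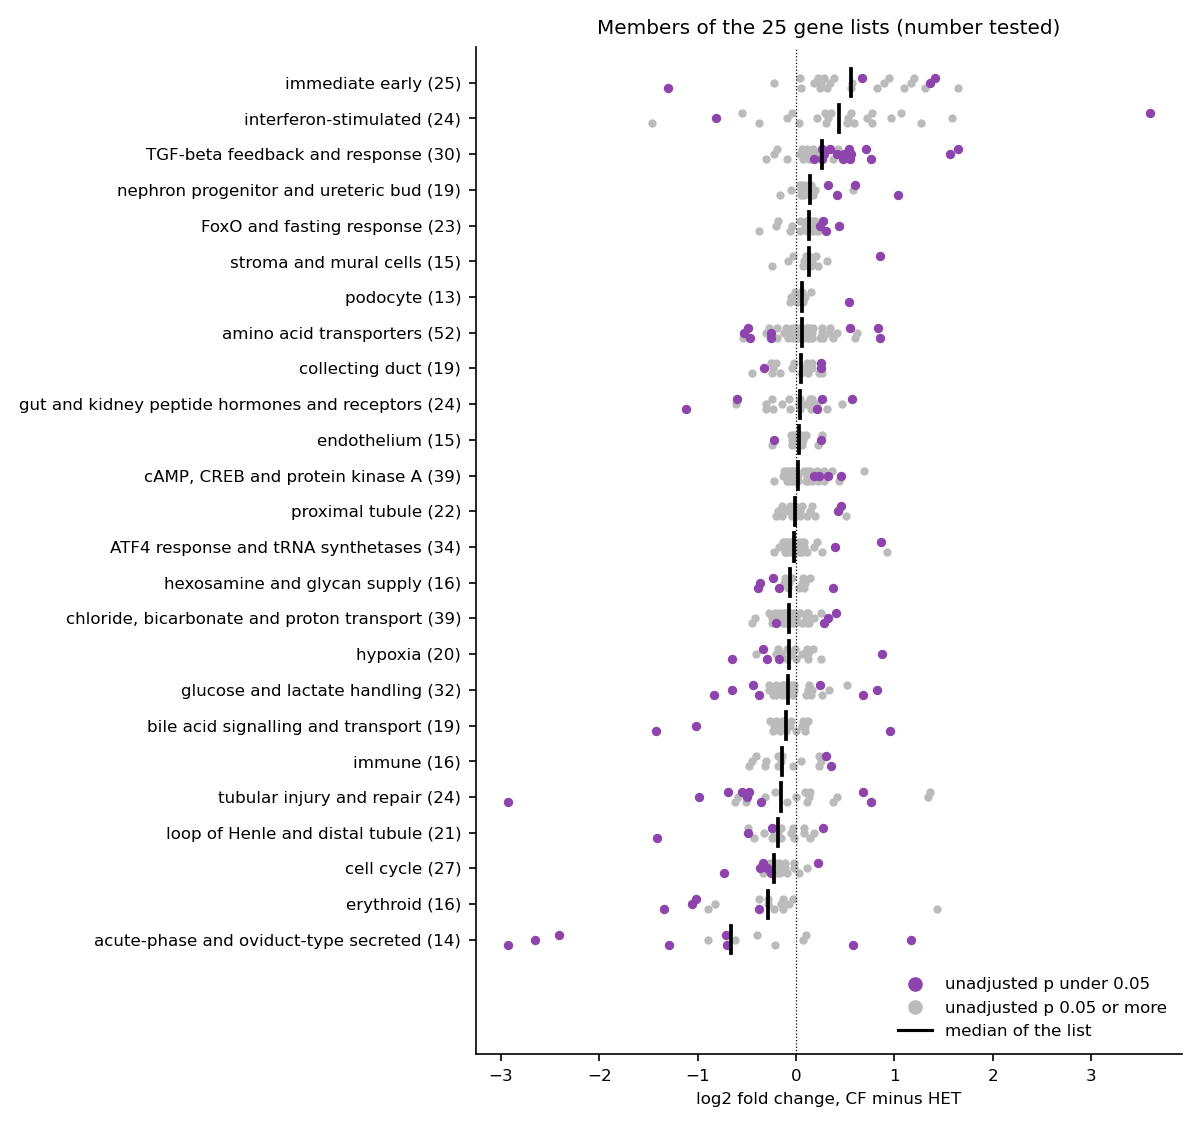
Log2 fold change of CF against HET (horizontal axis) for each tested member of 25 gene lists (rows, with the number tested); purple points have an unadjusted p under 0.05 and black bars are list medians. The TGF-beta list holds 15 purple points at positive values and a median of 0.26, and the acute-phase list has the lowest median, -0.66.

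The lists with the largest medians were those in which single libraries stood apart. The 25 immediate early genes had a median of 0.56 with 23 higher, and without CF pigs 1, 3 and 5 the median was -0.05 with 12 higher. JUNB reached 222 CPM in CF and had a median of 18.6 CPM there against 13.7 CPM in HET. The 24 interferon-stimulated genes had a median of 0.44 with 18 higher, and -0.10 without CF pig 3. RSAD2 had a median of 0.278 CPM in CF and 0.233 CPM in HET. The 14 acute-phase and oviduct-type secreted genes had a median of -0.66 with 10 lower, and 0.01 without HET pigs 14 and 15. In those pigs ALB and AHSG, a serum protein of fetal liver, were high, and without them ALB differed by 0.56 and AHSG by 0.03. APOA1, which differed by 0.58, and OVGP1 lay the other way. Of 24 genes of tubular injury and repair 14 were lower, with a median of -0.15 (0.02 without HET pig 20). ANXA1, an anti-inflammatory annexin, was at 26.4 to 38.3 CPM in CF and 29.7 to 61.6 CPM in HET and differed by -0.48 (SE 0.122, edgeR adjusted p = 0.305). It fell by 0.75 in the later-numbered pigs (edgeR adjusted p = 0.00997). In the earlier-numbered pigs CF libraries held 32.4 to 38.3 CPM, and HET pigs 13, 14 and 15 held 57.8, 35.2 and 29.7 CPM. KRT18, a keratin of simple epithelia, differed by -0.69, SPP1 (osteopontin) by -0.99, and SOX9, a transcription factor of tubule repair, by 0.68.

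The comparison depended on which pigs were used. In the earlier-numbered pigs alone (6 CF and 3 HET libraries), 0 of 21403 genes (0%) passed edgeR's adjusted threshold, with 972 at an unadjusted p under 0.05. In the later-numbered pigs alone (5 CF and 3 HET), 428 of 21241 genes (2.01%) passed, 181 higher (0.852%) and 247 lower (1.16%), with 3518 at an unadjusted p under 0.05. Of these 428 genes, 427 were tested in the earlier-numbered pigs, and 235 of them had the same sign there. The test of the difference itself, a genotype by pig set interaction in edgeR, called 9 genes (0.0423%), all more negative in the later-numbered pigs, with 2012 at an unadjusted p under 0.05. For any other gene, a call in the later-numbered pigs alone is not shown to differ from the earlier-numbered pigs.

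These 9 genes were picked by the test, not as a list, and each is given by its own values. PSMB10 and PSME2, of the immunoproteasome, differed between the sets by -1.63 and -1.14 (edgeR adjusted p = 0.00875 and 0.00537). PSMB10 stood at 40.8, 50 and 52.9 CPM in the later HET pigs, at 14.9 to 20.5 CPM in the earlier HET pigs, and at 16.5 to 31.7 CPM over all CF libraries. The raised value was thus that of the 3 later HET pigs. UBD, a ubiquitin-like protein induced by interferon and TNF, showed the same arrangement, with 4.58, 5.43 and 8.77 CPM in the later HET pigs and at most 1.49 CPM in any CF library, and a difference of -5.16 (edgeR adjusted p = 0.00404). SAA3, a serum amyloid, was at 4.41 to 9.73 CPM in the later HET pigs and 0 to 0.595 CPM in the later CF pigs, while earlier CF pigs held 2.94 to 6.04 CPM and earlier HET pigs 2.30 to 5.62 CPM (edgeR adjusted p of the difference = 0.00711). In CF pigs 7, 8 and 10 it lay at or under the floor of 3 counts, so the fitted size of the difference depends on the prior count.

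SLC39A8, a zinc and manganese importer, stood at 438, 544 and 669 CPM in the later HET pigs against 115 to 258 CPM in all CF libraries and 94.1 to 136 CPM in the earlier HET pigs (difference -2.26, edgeR adjusted p = 0.00877). SRGN, the granule proteoglycan of blood cells, differed by -1.97 (edgeR adjusted p = 0.00166), F13A1, a transglutaminase of macrophages and platelets, by -3.25 (0.0103), the lysosomal protease CTSS by -0.82 (0.0294), and the mitochondrial glycerol phosphate dehydrogenase GPD2 by -1.10 (0.0391). GBP1, an interferon-induced GTPase, did not pass this test (edgeR adjusted p = 0.132), though it was at 293, 294 and 299 CPM in the later HET pigs and fell by 3.22 in that set alone (edgeR adjusted p = 6.07e-05). CF pig 5 held 350 CPM of it. PTPRC, the common leukocyte antigen, was at 17.1 to 20.4 CPM in the later HET pigs and 8.63 to 10.9 CPM in the later CF pigs, and its part in these differences was not tested. The later WT pigs held 11.4 CPM of PTPRC, 15.3 to 24.8 CPM of GBP1 and 0.167 to 0.384 CPM of UBD.

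**Figure D5:**
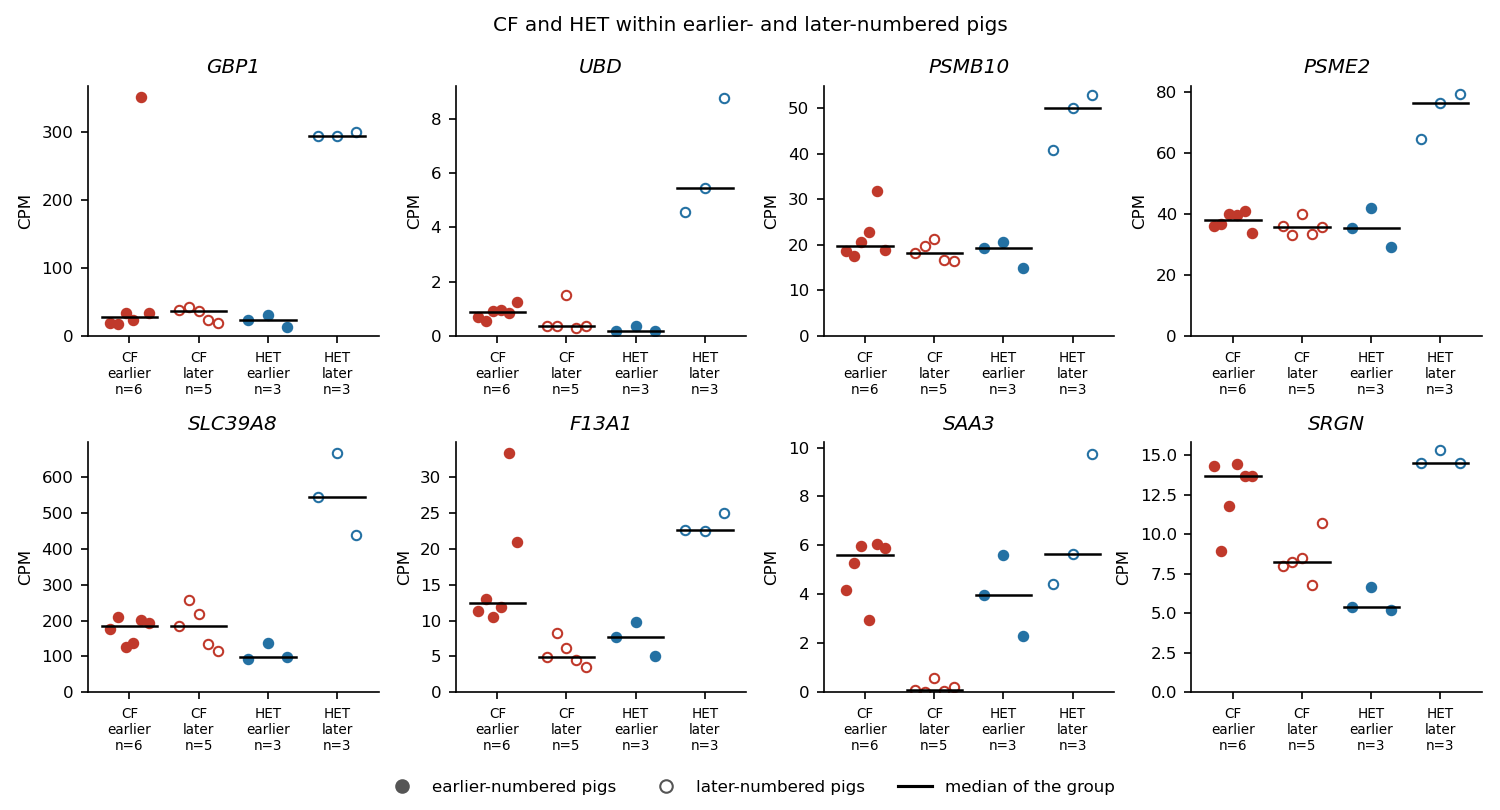
CPM (vertical axes) of GBP1, UBD, PSMB10, PSME2, SLC39A8, F13A1, SAA3 and SRGN in CF and HET libraries, split into earlier- (filled) and later-numbered (open) pigs (6, 5, 3 and 3 libraries), with bars at the medians. The median of the 3 later HET libraries is the highest of the 4 in all 8 panels, with values of 293 to 299 CPM for GBP1 and 40.8 to 52.9 CPM for PSMB10.

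With the WT libraries in the same fit, HET against WT called 1 of 21434 genes (0.00467%), which was CFTR itself (log2 fold change 2.47), with 1715 at an unadjusted p under 0.05, and CF against WT called 72 (0.336%). The comparisons share their CF, HET or WT libraries, so their values are set side by side only. For CCNB3 the log2 fold change was 0.00 for HET against WT and -0.73 for CF against WT, the latter past the threshold (edgeR adjusted p = 0.0342), and GPBAR1 and SKIL were arranged alike. For LY96 and MEOX2 it was HET that lay away from WT, while CF against WT was 0.31 and -0.43 (edgeR adjusted p = 0.508 and 0.449). ENO3 and NTN4 lay between, at 0.23 and 0.50 for HET against WT and -0.33 and -0.29 for CF against WT (edgeR adjusted p for CF against WT = 0.177 and 0.473).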

How the data were processed

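RNA of kidney cortex from newborn pigs was sequenced after ribosomal RNA depletion (stranded library kit), and pseudoalignment of the reads by the authors to transcripts of the pig (Sscrofa11.1, per the labels) used kallisto 0.48.0, after the study's methods. They deposited 1 table per pig with estimated counts per transcript, not normalized, and TPM, the same estimates per length scaled to a constant sum. The deposited TPM values were read only for CFTR transcripts and were not tested. The authors' own test compared CF with all other pigs and was not used.

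The 77689 transcripts were collapsed to 26687 genes by adding their estimated counts, and sums were rounded, since 60.4% to 64.5% of transcript values were not whole. Groups came from the genotype labels. The 11 CF and 6 HET libraries were compared with edgeR 4.0.16 (R 4.3.3) using TMM factors, filterByExpr, the quasi-likelihood test and Benjamini-Hochberg adjustment over all 21261 genes that passed, with 0.05 as the limit. CPM use TMM factors. WT values, the pig set interaction and the pig sets come from separate edgeR fits. Replicates were compared in pairs, and all 70 pairs within a group differed beyond sampling noise (chi-square per degree of freedom 23.9 to 117). Depth was 32901281 to 52952273 counts, and the floor of 3 counts covers counting error only. Alternatives used DESeq2 1.42.0, limma 3.58.1, and an exact Mann-Whitney test on CPM with a pseudocount of 0.01 (Python 3.11.15, numpy 2.4.6, scipy 1.17.1, pandas 2.3.3, with matplotlib 3.10.9 for figures). Steps were tested on counts simulated from edgeR's estimates of spread, where DESeq2 made a larger share of false calls than edgeR or limma-voom. Each pig gave 1 library, so p-values measure the spread between pigs.

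The comparison, the pig sets, the 25 lists and the named genes were chosen with earlier results of these data known. Named by rule were CFTR, any gene called, the 12 higher and 12 lower genes with the smallest p among those with a mean of at least 1 CPM and a symbol other than LOC numbers, the 4 genes of each list with the smallest p, SLC1A1 and SLC38A4, and up to 5 interaction genes. The other interaction genes, PTPRC, HBB, FGB, FOS, GBP1 and further list members were named after their values had been seen. Some genes held back for evaluations were left out of the text. Lists are described by counts and medians, without a set test. Symbols were those paired with the transcripts, and promoters were read from the Sscrofa11.1 genome with its RefSeq annotation.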

Additional observations from a re-analysis of the deposited data

Results flagged for a closer look

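In each genotype group, the highest and lowest library of the named genes was compared with its nearest neighbour (Dixon's test, for groups of up to 10, so in effect the 6 HET libraries). Of 141 genes tested, 10 (7.09%) had a HET library far from the other 5. Some of the genes flagged, among them FOS and EGR1, had been named after their values were seen, and several flags fell in the same pig. The share therefore cannot be set against the 1 in 20 that chance alone would flag. HET pig 20 was high for 4 immediate early genes: FOS at 61.5 CPM (next highest 4.09), EGR1 at 45.9 CPM (17.2), JUNB at 28.3 CPM (17.2) and BTG2 at 19.1 CPM (13.2). HET pig 13 was apart for 4 genes. In it KRT7, a keratin of duct epithelium, stood at 96.6 CPM (next 64.9), CHAC1, a glutathione-degrading enzyme, at 2.73 CPM (0.975), and FOSL1 at 1.07 CPM (0.405), while SLC34A1, the phosphate cotransporter of the proximal tubule, was lowest at 542 CPM (next 857). HET pig 15 was high for CPT1B at 12.7 CPM (next 10.9). The Y-linked EIF1AY was at 0 CPM in HET pig 14 and at least 16.3 CPM in the other HET pigs.

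The 9 interaction values were singled out because the CF against HET difference was not the same in earlier- and later-numbered pigs by edgeR's interaction test. The later-minus-earlier difference on the log2 scale was -1.97 for SRGN, -5.16 for UBD, -1.14 for PSME2, -5.48 for SAA3, -1.63 for PSMB10, -2.26 for SLC39A8, -3.25 for F13A1, -0.82 for CTSS and -1.10 for GPD2. The value for SAA3 depends on the prior count, since later CF pigs held 0 to 0.595 CPM, near the floor of 3 counts, and it is no measure of size. Each set holds 3 HET pigs. Litter, delivery and any difference in handling between the sets are not in the labels, so they cannot be told apart from pig number. The Y-linked EIF1AY was above 1 CPM in 3 of 6 earlier and 3 of 5 later CF pigs, and in 2 of 3 earlier and 3 of 3 later HET pigs. It was thus not balanced over these groups, and its part in the 9 differences was not tested.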

How the results depend on the processing

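The count of 0 genes called held under limma-voom with and without sample weights, the exact Mann-Whitney test, median-of-ratios, upper-quartile and library-size scaling, both other filters, all 23 libraries, the pig set term (2199 genes at an unadjusted p under 0.05), the EIF1AY term and the earlier-numbered pigs alone. It was 55 under DESeq2, 428 in the later-numbered pigs alone, and between 0 and 2 when single libraries were left out (2 without CF pig 5, OVGP1 and FGG). CFTR stayed positive in every fit: 0.66 under DESeq2 (adjusted p = 0.00453), 0.74 in the later-numbered pigs (0.0230), and 0.59 to 0.78 with each library left out. Among alternatives chosen after seeing the data, leaving out HET pigs 14 and 15 gave 1 call (ANXA1), and all 23 libraries with the pig set as a term gave 4 (SKIL, PTBP3 and GPCPD1 higher, NTN4 lower). Of 4536 gene values over the alternatives, 4430 kept direction and side of the threshold, 69 passed it in an alternative only, and 37 changed sign; 104 of 126 genes never changed sign. No paired analysis was possible because litter is not in the labels, so any littermates among these pigs could not be matched. Changed signs in the earlier-numbered pigs alone were CALB1 0.11, CTSS 0.19, F13A1 1.16, GBP1 1.79, GBP2 0.14, GPD2 0.24, HSD11B2 -0.01, KLHL3 -0.03, PSMB10 0.25, PSME2 0.10, SAA3 0.35, SLC12A3 0.03, SLC38A4 0.04, SLC39A8 0.67 and UBD 1.76. In the later-numbered pigs alone they were AHSG 0.17, ALB 0.52, BTG2 -0.10, DCN -0.07, EGR2 -0.22, SLC1A1 0.03 and SRGN -0.81. Without HET pigs 14 and 15 they were AHSG 0.03, ALB 0.56, SLC1A1 0.05 and SRGN -0.20. Without CF pigs 1, 3 and 5 they were SLC1A1 0.02 and SRGN -0.06. With the EIF1AY term SLC1A1 was 0.01, and when single libraries were left out SLC1A1 ranged from -0.12 to 0.06 and SRGN from -0.06 to 0.22. The causes were not tested. Of 800 list medians 788 moved by less than their spread. Genes near the floor of 3 counts cannot be compared at this depth.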

Other observations

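Further values belong to no comparison above. Among the 55 genes called by DESeq2 alone, TIMP3, an inhibitor of matrix proteases, differed by 0.57 (DESeq2 adjusted p = 0.0377), MFAP2, a microfibril protein, by 0.63 (0.0455), ASPN, a small proteoglycan that binds TGF-beta, by 0.57 (0.0291), ADAMTS2, a procollagen protease, by 0.57 (0.0455), and ECM2 by 0.38 (0.0450). None of them passed edgeR's adjusted threshold. The kinase receptor NTRK3 differed by 0.65 (0.0300), the WNT5A receptor ROR1 by 0.48 (0.0449), and BHMT, which remethylates homocysteine, by -0.89 (0.0455). These genes were picked after their values had been seen. In the later-numbered pigs the fibrinogen genes FGB and FGG fell by 5.14 and 4.72 on the log2 scale (edgeR adjusted p = 2.50e-04 and 6.07e-05), with FGB at 41.3 to 119 CPM in the later HET pigs and 1.05 to 3.53 CPM in the later CF pigs, and over both sets they differed by -0.21 and -0.62. Those values rested on CF pig 5, which held 321 and 147 CPM, and without it FGB and FGG differed by -2.78 and -3.33 (edgeR adjusted p = 0.288 and 0.0485). Without HET pig 20 they differed by 0.52 and 0.08.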
